A study of Mus musculus with 10 samples.

Results

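Caveolae are small flask-shaped pits of the plasma membrane, and 6 genes that encode their coat and the membrane proteins at their neck are described here in mouse fat: Cav1, Cav2, Cavin1, Cavin2, Cavin3 and Ehd2. The genes were chosen by name, as the rows of the count table whose symbol in mouse GENCODE release M21 is one of the 6, out of 26040 gene identifiers listed. All 6 passed the filter on low counts that left 16446 genes to test. The data are RNA sequencing of whole epididymal white adipose tissue, a visceral fat pad of the male mouse beside the epididymis. The knockout group is 5 libraries from C57BL/6 mice in which Sucnr1, the gene of the cell-surface receptor for succinate, was deleted in adipocytes, and the control group is 5 libraries from C57BL/6 mice carrying floxed Sucnr1 alleles (Sucnr1fl/fl). The Cre driver, the age, the litter and the diet were not given in the sources used here. Nor do the labels say that each library is a separate animal, so p-values measure the spread between these libraries. The comparison asks whether loss of the receptor from adipocytes goes with a different level of the caveola genes.

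Caveolin proteins insert into the inner leaf of the membrane as a hairpin and assemble into the curved coat, and cavins are cytosolic proteins that bind this coat from the inside. Adipocytes are among the cells richest in caveolae, and endothelial cells, smooth muscle cells and fibroblasts also carry many. In mice, loss of Cav1 or of Cavin1 removes caveolae from fat and leaves small fat pads, and in humans inherited loss of either gene causes a generalised lipodystrophy.

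Total counts ran from 24182798 to 30603326 per library. Sucnr1 stood between 2.05 and 4.67 CPM (counts scaled to library size) in the knockout libraries and between 38.01 and 75.9 CPM in the controls, so the targeted gene matched the labels in all 10 libraries. Markers of the labelled tissue were abundant, with the 15 adipocyte markers summing to between 25784 and 53802 CPM. Markers of the epididymis were also present, at 6601 CPM in knockout library 3 and 17726 CPM in control library 6 for 10 summed genes, and at 2.19 to 3209 CPM in the other libraries. Markers of liver summed to 5990 CPM in knockout library 6 and to at most 129 CPM elsewhere.

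Cav2 and Cav1 lie next to each other on chromosome 6, both on the plus strand, with 17220 bases between the end of Cav2 and the start of Cav1 in mm10. Cav2 (ENSMUSG00000000058) spans 17281185 to 17289115 and Cav1 (ENSMUSG00000007655) spans 17306335 to 17341452. Cavin1 (ENSMUSG00000004044) lies on the minus strand of chromosome 11 from 100956733 to 100970887, and Cavin2 (ENSMUSG00000045954) on chromosome 1, plus strand, between 51289126 and 51302960. Cavin3 (ENSMUSG00000037060), from 105480083 to 105482300, and Ehd2 (ENSMUSG00000074364), from 15946958 to 15967567, are both on the minus strand of chromosome 7. The 250 bases before the RefSeq start (GRCm38.p6) of the neighbours Cav2 and Cav1, whose levels had the highest Pearson's r of the 15 member pairs over all 10 libraries (0.96, beside 0.95 for Cav2 with Ehd2), are shown with those of Cavin2, the member with the steadiest level. Capitals mark the GC box GGGCGG and the CCAAT box CCAAT, each searched on both strands. All 3 are on the plus strand, at chr6:17280935-17281184 for Cav2, chr6:17306085-17306334 for Cav1 and chr1:51288876-51289125 for Cavin2.
Cav2: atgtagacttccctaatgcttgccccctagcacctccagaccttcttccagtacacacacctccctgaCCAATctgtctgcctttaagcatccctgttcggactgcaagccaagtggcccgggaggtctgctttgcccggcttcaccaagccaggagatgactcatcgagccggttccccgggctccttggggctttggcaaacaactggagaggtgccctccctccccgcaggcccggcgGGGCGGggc
Cav1: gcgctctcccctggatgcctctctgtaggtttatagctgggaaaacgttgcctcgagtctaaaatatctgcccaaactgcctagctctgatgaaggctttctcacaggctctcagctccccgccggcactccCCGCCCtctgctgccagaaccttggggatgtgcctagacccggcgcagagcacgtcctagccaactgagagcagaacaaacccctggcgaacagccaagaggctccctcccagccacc
Cavin2: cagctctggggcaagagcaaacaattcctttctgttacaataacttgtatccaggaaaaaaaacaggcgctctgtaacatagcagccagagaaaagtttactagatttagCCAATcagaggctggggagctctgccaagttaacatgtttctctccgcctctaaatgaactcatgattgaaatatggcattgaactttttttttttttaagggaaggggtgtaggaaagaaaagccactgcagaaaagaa
GC content was 62.0% for Cav2, 59.6% for Cav1 and 40.4% for Cavin2 in these windows. A GC box is in the first of 2 windows of Cav1 and not in the second, in both windows of Cavin1, and in those of Cav2 and Ehd2. It is in 32.8% of 32841 windows of the same length. A CCAAT box is in the windows of Cav2, Cavin1, Cavin2 and Ehd2 and in 33.9% of windows. The TEAD motif GGAATG is in both windows of Cavin1 and in no other of these, and 12.6% of windows hold it. The only match to the TATA box TATAAA was in the first window of Cav1, on the reverse strand, and 12.4% of windows hold one. The E-box CACGTG, in 6.02% of windows, and the DR1 direct repeat bound by PPAR with RXR, in 0.0335%, had no match in the windows of the 5 members that RefSeq gave one for.

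No difference between the groups was detected for any of the 6 caveola genes. No member passed an adjusted p of 0.05 in edgeR's quasi-likelihood test, where 0.0608% of all genes tested did (0.0243% with a higher and 0.0365% with a lower knockout level). None had an unadjusted p under 0.05, against 10.1% of all genes tested (5.36% higher and 4.77% lower), and DESeq2 also called none, against 1.41%. The fitted log2 fold changes of the members lay between -0.08 and 0.21, 4 of them above 0 and 2 below, where 44.8% of all genes tested were above 0 and 55.2% below. Their median was 0.09 beside -0.03 over all genes tested. In whole tissue, fewer cells of a type and less RNA per cell cannot be told apart.

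Cav1 encodes caveolin-1, the membrane scaffold without which caveolae do not form in fat. Its level was 1922, 1341, 2969, 1918 and 2015 CPM in knockout libraries 2 to 6, and 2547, 1515, 1985, 2354 and 1173 CPM in control libraries 2 to 6. Knockout library 4 was the highest of all and control library 6 the lowest, and the groups overlapped over most of their range. Knockout libraries averaged 2033 ± 588 CPM and controls 1915 ± 572 CPM (SD over 5 libraries each). The fitted log2 fold change was 0.09 ± 0.26 (standard error; edgeR adjusted p = 0.911), and its 95% interval from -0.48 to 0.66 spans 0.715-fold to 1.58-fold.

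Cav2 encodes caveolin-2, which joins caveolin-1 in the coat and needs it to leave the Golgi. It stood at 371, 286, 473, 383 and 397 CPM in knockout libraries 2 to 6, and at 402, 278, 349, 435 and 236 CPM in control libraries 2 to 6. As for Cav1, knockout library 4 was the highest and control library 6 the lowest. Group means were 382 ± 66.5 and 339.6 ± 83.0 CPM for knockout and control (SD over 5 libraries each). Its log2 fold change was 0.17 ± 0.19 (standard error), and its 95% interval ran from -0.25 to 0.58 (edgeR adjusted p = 0.751).

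Cavin1 encodes the cavin that every caveola of fat requires. It stood at 802, 659, 1166, 1203 and 908 CPM in knockout libraries 2 to 6, and at 1182, 872, 1024, 1345 and 577 CPM in control libraries 2 to 6. Here control library 5 was the highest, above knockout libraries 4 and 5, and control library 6 was again the lowest. The fitted level in the knockout group was 0.948 times that of the controls (95% interval 0.651 to 1.38). On the log2 scale this was -0.08 ± 0.24 (standard error), and its 95% interval ran from -0.62 to 0.46 (edgeR adjusted p = 0.916).

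Cavin2 encodes a cavin that binds phosphatidylserine and helps to bend the membrane. It stood at 645, 512, 709, 658 and 700.3 CPM in knockout libraries 2 to 6, and at 657, 537, 733, 705 and 371 CPM in control libraries 2 to 6. Apart from knockout library 3 and control libraries 3 and 6, all its values lay between 645 and 733 CPM. For Cavin2 the log2 fold change was 0.10 ± 0.18 (standard error), and its 95% interval ran from -0.31 to 0.51 (edgeR adjusted p = 0.846). A gene on the other strand, 9330175M20Rik, overlaps Cavin2 but held between 1 and 20 counts per library, against 10584 to 20686 for Cavin2.

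Cavin3 encodes a cavin that binds protein kinase C delta. It stood at 51.5, 32.7, 76.3, 55.2 and 52.5 CPM in knockout libraries 2 to 6, and at 69.3, 57.4, 55.2, 60.01 and 33.7 CPM in control libraries 2 to 6. Its lowest library was knockout 3, just under control 6, and its highest was knockout 4. For Cavin3 the log2 fold change was -0.04 ± 0.23 (standard error), and its 95% interval ran from -0.55 to 0.47 (edgeR adjusted p = 0.958).

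Ehd2 encodes an ATPase that forms rings at the caveolar neck and holds caveolae at the surface. It stood at 555, 378, 781, 607 and 549 CPM in knockout libraries 2 to 6, and at 583, 474, 508, 634 and 284 CPM in control libraries 2 to 6. It had the widest spread of the set, 2.75-fold from control library 6 to knockout library 4. The fitted log2 fold change was 0.21 ± 0.24 (standard error), the largest of the 6, and its 95% interval ran from -0.31 to 0.73 (edgeR adjusted p = 0.757). Across the set, exact two-sided permutation tests of log2 CPM gave p from 0.357 for Cav2 to 0.849 for Cavin1, where 5 against 5 libraries allow a smallest p of 0.00794. The groups overlapped for all 6 genes, while 1.91% of all genes tested had groups that did not overlap (1.01% higher and 0.9% lower in the knockout group).

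**Figure D1:**
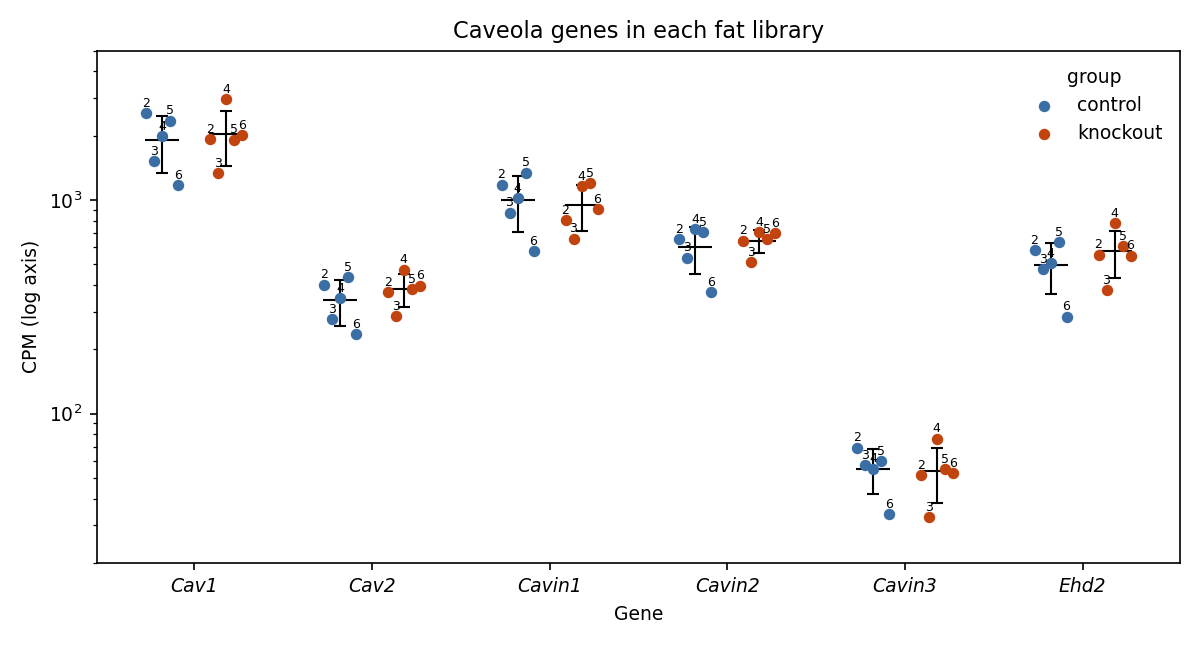
CPM (log axis) of the 6 caveola genes in the 5 control and 5 knockout libraries. Each point is 1 library with its number, the horizontal bar is the group mean and the error bar its SD; in each gene the groups overlap, and libraries 3 of the knockout group and 6 of the controls sit low.

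Per length of exons, Cav1 was the most abundant member, at 573 ± 160 CPM per kb (SD over 10 libraries), which placed it 46th of 16431 tested genes with a known length. Cavin1 followed at 272 ± 70.4 CPM per kb and Cavin2 at 204 ± 37.5 CPM per kb. This order held in each of the 10 libraries, with Cav1 above Cavin1 by 1.66-fold to 2.65-fold and Cavin1 above Cavin2 by 1.06-fold to 1.62-fold. Cav2 and Ehd2 stood next, at 108 ± 22.3 and 105 ± 26.9 CPM per kb. Cav2 was the higher of this pair in 7 of 10 libraries, so their order was not separated from the spread. Cavin3 came last at 32.7 ± 8.15 CPM per kb and below Ehd2 in 10 of 10 libraries, still 1127th of 16431 genes.

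Ratios between members were then taken within each library. Per length, Cav2 stood at 0.199 ± 0.0209 of the Cav1 level in knockout libraries and at 0.186 ± 0.0162 of it in control libraries (SD over 5 each). Cavin1 stood at 0.457 ± 0.0887 and 0.503 ± 0.0470 of the Cav1 level, with the highest value, 0.602, in knockout library 5. Cavin2 stood at 0.371 ± 0.0605 and 0.360 ± 0.0499 of it in the same order. Cavin3 stood at 0.0546 ± 0.00332 and 0.0610 ± 0.0101 of it, and Ehd2 at 0.191 ± 0.0137 and 0.176 ± 0.0217. For each of the 7 ratios computed the groups overlapped.

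The muscle forms of the coat were scarce. Cav3, the caveolin of skeletal and heart muscle, had 25 counts in all 10 libraries together, between 0 and 7 per library, and was not tested. Cavin4, the cavin of striated muscle, had 2.12 ± 0.714 and 1.64 ± 0.481 CPM for knockout and control (SD over 5 libraries each; edgeR adjusted p = 0.672).

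The 6 genes largely shared their low libraries. Knockout library 3 and control library 6 were the 2 lowest libraries for 5 of the 6 genes, and Cav2 was lowest in control libraries 6 and 3. Knockout library 4 was the highest for Cav1, Cav2, Cavin3 and Ehd2, while Cavin1 was highest in control library 5 and Cavin2 in control library 4. Averaged over the 6 genes, log2 CPM lay 0.45 above its mean over the libraries in knockout library 4, and at -0.45 and -0.70 relative to that mean in knockout library 3 and control library 6. From the lowest to the highest library the genes spanned 1.97-fold for Cavin2 to 2.75-fold for Ehd2. Knockout library 3 and control library 6 also held the most epididymal RNA, whose part in their low values was not tested.

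**Figure D2:**
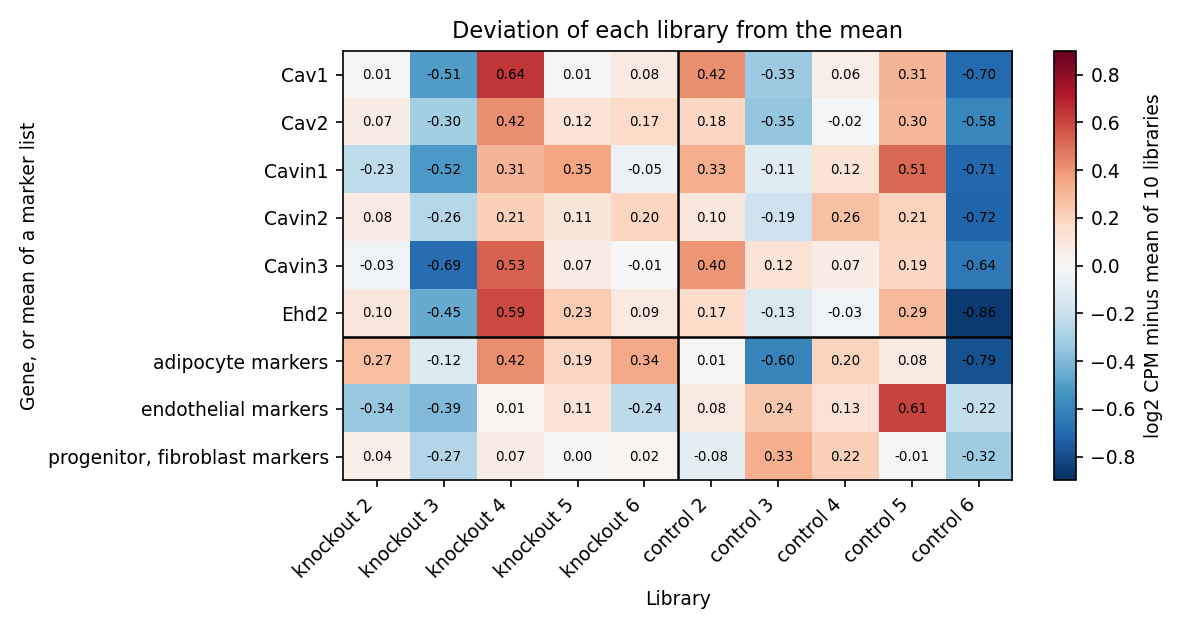
Log2 CPM of each caveola gene, and mean log2 CPM of 3 marker lists, in each library minus the mean over the 10 libraries; red is above and blue below that mean. The caveola genes share their low libraries (knockout 3 and control 6) and 4 of the 6 their highest (knockout 4), and adipocyte markers are lowest in control libraries 3 and 6.

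Across the 10 libraries, log2 CPM of each of the 15 pairs of members was positively correlated. Pearson's r ran from 0.77 for Cavin2 with Cavin3 to 0.96 for Cav1 with Cav2, and all 15 pairs had an adjusted permutation p of at most 0.0145. Spearman's rho ran from 0.62 to 0.93, with 14 pairs at an adjusted p under 0.05 and Cavin2 with Cavin3 at 0.0601. Cav1 with Cav2 had r = 0.96 (permutation p = 6e-05) and rho = 0.93 (permutation p = 0.0004), and r = 0.91 without knockout library 4 and control library 6. The libraries left out were those farthest from the median of the first gene, so they differ between pairs. The other pairs with Cav1, without the same libraries, had r from 0.80 to 0.87, and the pairs of Cav2 with the cavins and Ehd2, without control libraries 3 and 6, had r from 0.76 to 0.97. Among the cavins and Ehd2, without knockout library 3 and control library 6, r was 0.15 for Cavin2 with Cavin3, 0.45 for Cavin1 with Cavin2, 0.50 for Cavin2 with Ehd2, 0.57 for Cavin1 with Cavin3, 0.62 for Cavin1 with Ehd2 and 0.70 for Cavin3 with Ehd2. The relation of Cavin2 with Cavin3 was thus much weaker without those libraries. Leaving out the libraries farthest from the median also narrows the range, so this does not show that the relation rests on them alone. With the group means subtracted, r was between 0.81 and 0.97. All genes of a library share its tissue makeup, whose part in these correlations was not tested.

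Markers of some of the cells that carry caveolae were not evenly spread over the groups. All 15 adipocyte markers had a log2 fold change above 0, with a median of 0.37. They summed to 39121 to 53802 CPM in knockout and 25784 to 52731 CPM in control libraries. Control libraries 3 and 6 had the lowest sums, 29146 and 25784 CPM. The sums of control libraries 2, 4 and 5 (43288, 52731 and 47483 CPM) lay within the knockout range. For the single markers Gpd1 and Acsl1 the groups did not overlap, as for 1.91% of all genes tested. All 16 endothelial markers had a log2 fold change below 0, with a median of -0.29. Their sums were 951 to 1297 CPM in knockout and 1039 to 1849 CPM in control libraries. No marker of either list was at 0 in all libraries or passed edgeR's threshold, against 0.0608% of all genes tested. DESeq2 called 2 of the 15 adipocyte markers and 1 of the 16 endothelial markers, against 1.41% of all genes. The endothelial one was Cldn5, the tight junction protein claudin-5, at 27.1 to 38.2 CPM in knockout and 45.2 to 91.6 CPM in control libraries (log2 fold change -1.20, edgeR adjusted p = 0.103). Of the 12 smooth muscle and pericyte markers, 11 were lower, and their sum was 3955 CPM in control library 3 and 608 to 969 CPM in the other 9 libraries. Control libraries 3 and 2 also held the most vas deferens RNA (5188 and 808 CPM), whose part in the smooth muscle values was not tested.

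Across the 10 libraries, 24 relations between a member and 1 of 4 marker scores were computed, a score being the mean log2 CPM of its list. With the adipocyte score, Cavin2 had r = 0.89 (permutation p = 0.00175, adjusted p = 0.0210) and Cav2 r = 0.88 (permutation p = 0.00098, adjusted p = 0.0210). Their rho was 0.75 (permutation p = 0.0172) and 0.67 (permutation p = 0.0389), with an adjusted p of 0.188 for each. Cav1 and Ehd2 had r = 0.77 and 0.80 with an adjusted permutation p of 0.0542 each, and Cavin1 and Cavin3 had r = 0.60 and 0.55. Without control libraries 3 and 6, r was 0.69 for Cavin2 (exact permutation p = 0.0507) and 0.63 for Cav2 (exact permutation p = 0.0869), and no adjusted p of the 6 genes passed. Fewer libraries also make the threshold harder to pass, so this does not show that the relations rest on that pair alone. With all 10 libraries and the group means subtracted, 5 of the 6 genes passed, with r = 0.95 for Cavin2 (adjusted permutation p = 0.00024) and r = 0.90 for Cav2 (adjusted permutation p = 0.00852). Many genes varied together after this subtraction: 33.6% of 10396 genes ranked had r above 0.5 with the mean of the 6 members. With the endothelial score the strongest relation was that of Cavin1 (r = 0.75, permutation p = 0.0130, adjusted p = 0.0622; rho = 0.66, permutation p = 0.0442, adjusted p = 0.188), which had r = 0.57 without knockout library 3 and control library 5. With the smooth muscle score r ran from -0.44 to 0.10, and from -0.96 to -0.73 without control libraries 2 and 3, with adjusted exact permutation p from 0.0685 to 0.116. None of the 18 relations with the endothelial, smooth muscle and fibroblast scores had an adjusted p under 0.05 by r or by rho. With the group means subtracted 2 of them did, Cavin1 with the endothelial score (r = 0.87, adjusted permutation p = 0.00888) and Ehd2 with the endothelial score (r = 0.79, adjusted permutation p = 0.0230). All p-values with the group means subtracted tend to be too small, as values were still permuted across both groups.

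**Figure D3:**
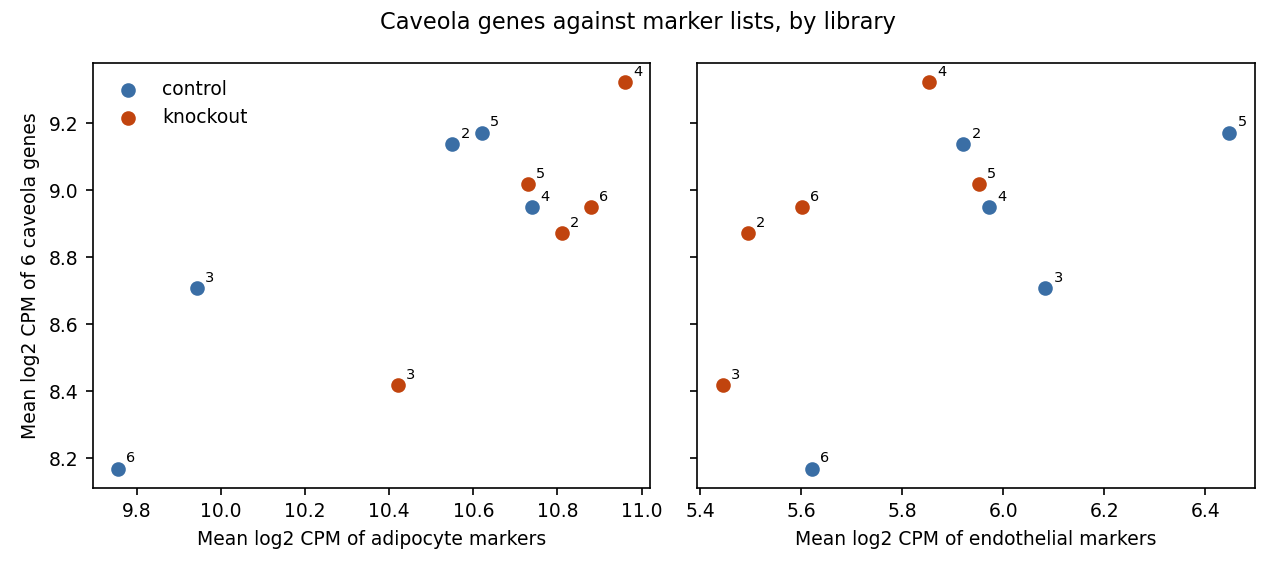
Mean log2 CPM of the 6 caveola genes against the mean log2 CPM of 15 adipocyte markers (left) and 16 endothelial markers (right). Each point is 1 library, labelled with its number and coloured by group; control libraries 3 and 6 have the lowest adipocyte values.

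The direction of the fitted changes depended on which marker score was held constant. The mean scores themselves differed between the groups. The adipocyte score averaged 10.76 in knockout and 10.32 in control libraries, and the endothelial score 5.67 and 6.01. Control libraries 3 and 6 had the lowest adipocyte scores, 9.94 and 9.755. Those of control libraries 2, 4 and 5 (10.55, 10.74 and 10.62) lay within the knockout range of 10.42 to 10.96. In these fits the part of the score and that of the group therefore cannot be fully told apart. With the adipocyte score as a covariate all 6 genes were lower in the knockout group, with log2 fold changes from -0.49 for Cavin1 and -0.40 for Cav1 to -0.19 for Cav2. In that fit Cavin2, Cavin1 and Cav1 had unadjusted p of 0.027, 0.035 and 0.0477, as 1885 of the 16446 genes tested had one under 0.05, and the smallest edgeR adjusted p was 0.424. With the endothelial score as a covariate all 6 were higher, from 0.30 for Cavin3 to 0.64 for Ehd2 (edgeR adjusted p = 0.15) and 0.47 for Cav2 (edgeR adjusted p = 0.188). In that fit Ehd2 and Cav2 had unadjusted p of 0.0119 and 0.0286, as 3614 of the 16446 genes tested had one under 0.05. With the smooth muscle score as a covariate the signs were mixed, from -0.175 for Cavin1 to 0.162 for Ehd2. Without control libraries 3 and 6 all 6 lay below 0, from -0.33 for Cavin1 to -0.008 for Ehd2. Averaged over the 6 genes, those 2 controls lay at -0.16 and -0.70 log2 CPM relative to the mean of the 10 libraries. Knockout library 3, at -0.45, was kept, so the choice of libraries itself favours values below 0 in that fit. No gene of the set passed the threshold over all genes in any of these fits.

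**Figure D4:**
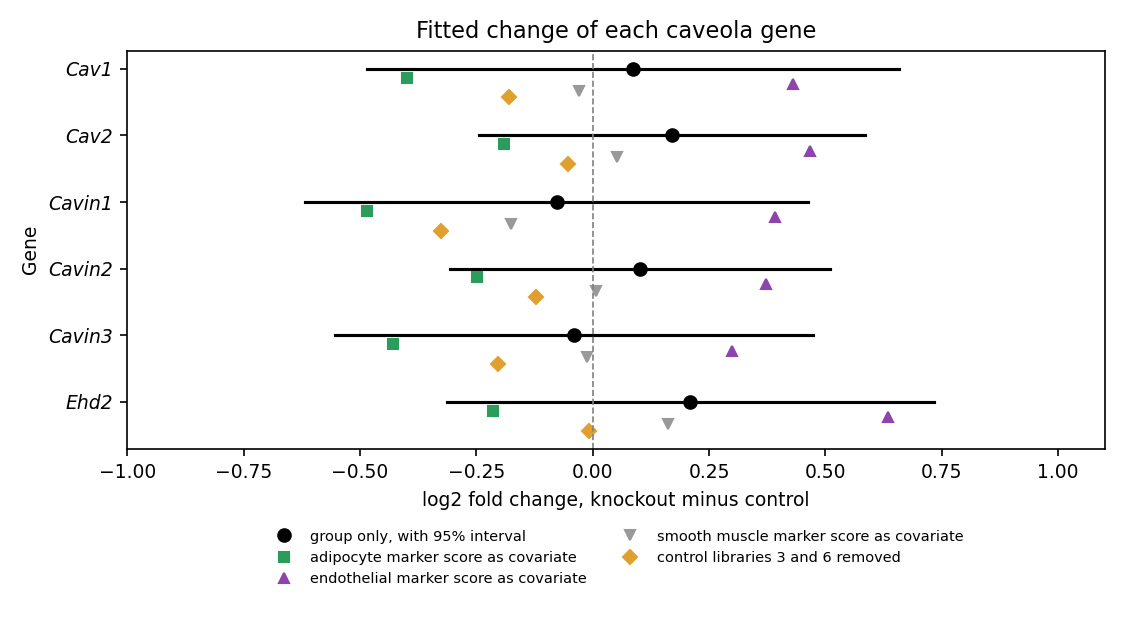
Fitted log2 fold change of each caveola gene, knockout minus control. Black points with lines are the fit with group alone and its 95% interval, and coloured symbols are the fits with a marker score as a covariate or without control libraries 3 and 6; the adipocyte score puts all 6 genes below 0 and the endothelial score all 6 above 0.

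Beyond the coat, 48 other genes of the caveola pathway in 6 lists were examined, and 46 of them were tested. None passed over all genes with edgeR; 7 of the 46, or 15.2%, had an unadjusted p under 0.05, beside 10.1% of all genes tested, 4 of them above 0 and 3 below. DESeq2 called 2, Plvap and Srebf1, where it called 1.41% of all genes it tested. The median log2 fold change was 0.07.

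Of 11 tested genes that shape the neck and membrane, 6 were higher and 5 lower. Plvap encodes the protein of the diaphragm that spans the caveolar neck in endothelium. It stood at 16.2, 14.7, 16.6, 18.6 and 17.8 CPM in knockout libraries 2 to 6 and at 19.0, 29.1, 25.8, 31.6 and 21.9 CPM in control libraries 2 to 6. The groups thus did not overlap, as for 1.91% of all genes tested. For Plvap the log2 fold change was -0.60 ± 0.14 (standard error; edgeR adjusted p = 0.324; DESeq2 adjusted p = 0.0135), beside endothelial markers that were lower in 16 of 16 cases. Ehd3, a relative of Ehd2 in endosomal transport, stood at 18.3 ± 4.15 and 29.1 ± 7.83 CPM for knockout and control (SD over 5 libraries each; edgeR adjusted p = 0.432). Pacsin3, an F-BAR protein, had a fitted log2 difference of 0.23 (edgeR adjusted p = 0.474) and Ehd4 one of -0.31 (edgeR adjusted p = 0.507). Pacsin2, which tubulates membrane at caveolae, and Dnm2, the dynamin that cuts them free, had log2 fold changes of 0.09 and 0.13.

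Of 10 proteins found in the caveolae of fat and vessels, 10 had a log2 fold change above 0, with a median of 0.17. Slc27a1, a fatty acid transporter, averaged 1346 ± 245 CPM in knockout and 887 ± 240 CPM in control libraries (SD over 5 each), with a fitted log2 fold change of 0.60 ± 0.20 (standard error; edgeR adjusted p = 0.436). Plin1, which coats the lipid droplet, had 0.46 and Slc2a4, which encodes the glucose transporter GLUT4, had 0.45 (edgeR adjusted p = 0.506 and 0.546). Insr, the insulin receptor, had 0.20 (edgeR adjusted p = 0.543). The list shares its direction with the 15 adipocyte markers, whose part in it was not tested. Aoc3, an amine oxidase of the adipocyte surface, had 0.01 and Cd36, the fatty acid receptor whose surface level depends on caveolae, 0.10.

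Among 6 raft proteins and linkers, 4 were higher and 2 lower. Flna, the actin cross-linker filamin A that ties caveolin-1 to stress fibres, ran from 573 to 852 CPM in knockout and from 842 to 1626 CPM in control libraries, with a fitted log2 fold change of -0.54 (edgeR adjusted p = 0.446). Its highest value was in control library 3, the library with the most smooth muscle RNA and the most vas deferens RNA. The flotillin genes Flot2 and Flot1 had log2 fold changes of 0.24 and 0.19 (edgeR adjusted p = 0.588 and 0.704), and Erlin1 0.12 (edgeR adjusted p = 0.69). Of 6 kinases that act on the coat, 2 were higher and 4 lower. Src, which phosphorylates caveolin-1, had -0.32 (edgeR adjusted p = 0.498), Prkcd -0.33, and Abl1 and Abl2 0.08 and 0.05.

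Of 12 transcription factors and cofactors reported to act on caveola genes, 5 were higher and 7 lower. Srebf1, a sterol-sensing factor that also drives fat synthesis, stood at 335, 250.3, 278, 288 and 274 CPM in knockout libraries 2 to 6 and at 219, 199, 238, 251 and 225 CPM in control libraries 2 to 6. The groups met only where knockout library 3 fell just under control library 5, and the fitted log2 fold change was 0.33 ± 0.10 (standard error; edgeR adjusted p = 0.385; DESeq2 adjusted p = 0.0472). Foxo1, a factor restrained by insulin, had a fitted value of 0.58 on the log2 scale (edgeR adjusted p = 0.432). Its groups did not overlap, at 96.0 to 168 CPM and 53.2 to 92.4 CPM for knockout and control, as for 1.91% of all genes tested. Tead1 and Srf had 0.36 and -0.17 (edgeR adjusted p = 0.529 and 0.547), and Pparg, the adipocyte master factor, had 0.28 (edgeR adjusted p = 0.59).

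**Figure D5:**
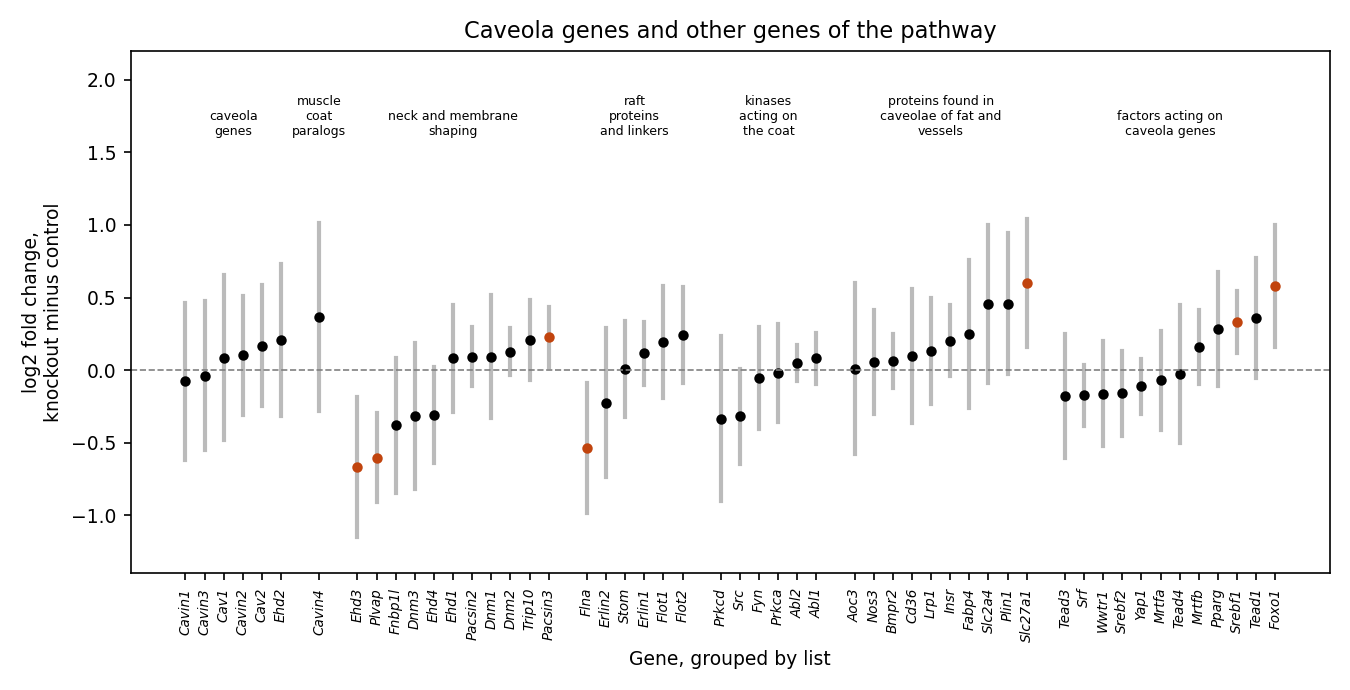
Fitted log2 fold changes (knockout minus control) with 95% intervals for the 6 caveola genes and the 46 tested genes of 6 pathway lists. Red points have an unadjusted p under 0.05; none passed after adjustment over all genes, and the 6 caveola genes lie between -0.08 and 0.21.

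The genes next to the members were compared in the same fit. Of 10 tested protein-coding neighbours none passed, against 0.0608% of all genes tested, and 2 had an unadjusted p under 0.05, against 10.1%. They were Tes and Met, which flank the Cav2 and Cav1 pair on either side. Tes, an adhesion protein gene 175357 bases before Cav2, averaged 17.2 ± 3.94 CPM in knockout and 29.5 ± 11.4 CPM in control libraries (SD over 5 each; log2 fold change -0.78, edgeR adjusted p = 0.436). Met, the receptor of hepatocyte growth factor 122348 bases after Cav1, averaged 141 ± 35.3 and 89.8 ± 22.3 CPM (SD over 5 each; log2 fold change 0.65, edgeR adjusted p = 0.436). Both pairs of groups overlapped, and between them Cav2 and Cav1 had 0.17 and 0.09. Stat3 and Atp6v0a1 beside Cavin1 had 0.12 and -0.08, and Nop53 and Bicra beside Ehd2 0.07 and 0.10. Tmeff2 and Nabp1 beside Cavin2 had -0.15 and -0.12, and Cckbr and Smpd1 beside Cavin3 had -0.55 and 0.02.

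Among 10396 genes whose mean log2 CPM reached 3, those most like the mean of the 6 members over the 10 libraries, after the group means were subtracted, were Ggcx, Aplp2, Mpdz, Ywhag and Slc38a10, with Pearson's r from 0.989 to 0.995. The least like were Pla2g7, H3f3b, Kcnip3, Txnrd1 and Med14, with r from -0.972 to -0.985. Of the 10396 genes, 3489 had r above 0.5. Among marker lists, 12 of 15 adipocyte markers and 12 of 16 endothelial markers had r above 0.5, with medians of 0.79 and 0.71 beside 0.19 over all genes ranked. Values above 0.5 were found for 3 of 8 smooth muscle markers (37.5%), with a median of 0.14, beside 33.6% of all genes ranked. For fibroblast markers they were found for 3 of 12 (25.0%), with a median of 0.42 and a range from -0.95 to 0.95. Epididymal markers had r from -0.75 to -0.56 for 5 ranked genes. Mesothelial markers had a median of -0.25 for 10.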

How the data were processed

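The authors deposited unnormalized counts for each Ensembl gene in 10 libraries, whose columns were matched to samples by title and grouped by the condition label. Per the labels' protocols, 300 ng of total RNA went into each stranded library. The submitters' processing notes name STAR 2.5.2 and mm10. Counting program, annotation and strand setting were not given in the sources used here; overlapping genes are therefore uncertain. GENCODE M21 gave symbols, mm10 positions and exon lengths, and RefSeq (GRCm38.p6) the upstream sequences.

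Counts were fitted in R 4.3.3 with edgeR 4.0.16 on all 16446 genes that filterByExpr kept (minimum count 10, minimum total 15), with TMM scaling, group as the only term, a robust quasi-likelihood test and Benjamini-Hochberg adjustment over all genes at 0.05. Log2 CPM used a prior count of 2. Correlation p-values came from 100000 permutations, two-sided, adjusted over 24 marker relations and over 15 pairs. After the group means were subtracted, values were still permuted across both groups, so those p-values tend to be too small. Alternatives covered scaling, filters, DESeq2 1.42.0, limma 3.58.1 (voom), a replicate block, left-out libraries and marker scores as covariates. The edgeR fit was tested on simulated counts with known changes.

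The members and lists were chosen with earlier results of these data known. The genes named were all members, up to 4 of smallest p per pathway list, the nearest tested neighbours and the 5 genes most and least like the members. Pacsin2, Dnm2, Aoc3, Cd36 and Pparg fall outside this rule and were named after their values were seen.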

Additional observations from a re-analysis of the deposited data

Results flagged for a closer look

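The mean log2 CPM of the 12 adipose progenitor and fibroblast markers was 7.44 in knockout library 3, which stood apart below the other 4 knockout libraries. That library was also among the 3 lowest for each of the 6 caveola genes and held 6601 CPM of epididymal markers. In all, 20 groups of 5 libraries were checked in this way, and chance flags about 1 in 20.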

How the results depend on the processing

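No caveola gene was called in any of 23 alternatives, whose smallest adjusted p was 0.15, and 118 of 138 values kept their sign. The sign turned in the other 20. With sample weights Cav1 was -0.107 and Cavin2 -0.0195. Without control libraries 3 and 6, Cav1 was -0.181, Cav2 -0.0538, Cavin2 -0.121 and Ehd2 -0.00784. With the adipocyte score as a covariate these 4 were -0.399, -0.19, -0.248 and -0.215, with the endothelial score Cavin1 was 0.391 and Cavin3 0.3, and with the smooth muscle score Cav1 was -0.0297. Leaving out each library gave ranges of -0.0904 to 0.21 for Cav1, 0.0585 to 0.274 for Cav2, -0.227 to 0.0524 for Cavin1, -0.0339 to 0.184 for Cavin2, -0.201 to 0.0947 for Cavin3 and 0.0582 to 0.328 for Ehd2. The sign turned without knockout 3 for Cavin1 and Cavin3, without knockout 4 for Cav1, without control 2 for Cavin3, without control 5 for Cavin1, and without control 6 for Cav1 and Cavin2. Over all genes, edgeR called 10, DESeq2 213, sample weights 27, and the fits without control libraries 3 and 6, with the endothelial score and with the smooth muscle score 6, 6 and 3; leaving out each library gave 3 to 18. The replicate block called 4 genes and gave Cav1 a log2 fold change of 0.0949 and Ehd2 0.22; same-numbered libraries correlated from -0.113 to 0.632, and 2 of 5 knockout libraries correlated best with their own number, so the number was not taken as a pairing. Of 6 relations with the adipocyte score, 2 passed, 0 without control libraries 3 and 6, and 5 with group means subtracted; with the endothelial score 0 passed, and 2 with group means subtracted. The cause of these shifts was not tested, and p-values after the group means were subtracted tend to be too small. With 5 libraries per group the 95% intervals reached lowest for Cavin1, from 0.651-fold to 1.38-fold, and highest for Ehd2, from 0.804-fold to 1.66-fold. They ran from 0.682-fold to 1.39-fold for Cavin3 and from 0.715-fold to 1.58-fold for Cav1. Those of Cavin2 and Cav2 ran from 0.809-fold to 1.42-fold and from 0.844-fold to 1.499-fold. Differences within a gene's interval cannot be told from none.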
